A study of Mus musculus with 12 samples.

Results

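The *Slc25* genes encode the mitochondrial carrier family, and their poly(A) RNA was followed across the day in mouse liver. All 41 genes whose symbol begins with *Slc25a* and a number were taken, out of 20069 genes in the deposited table, by symbol alone. The livers came from wild-type C57BL/6 male mice of 3 to 6 months, kept in 12 hr of light and 12 hr of darkness for 2 weeks or more. Samples were collected every 4 hr from ZT2 to ZT22 (ZT0 is lights on, ZT12 is lights off), making 6 time points, in 2 series, which gives 12 samples and n = 2 at each time point. No mutant and no treated group belongs to these samples, and the liver was removed from each mouse, so no animal was followed over time. The sources used here do not say whether a sample held 1 liver or several, so p-values measure the spread between these samples.

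Carriers of this family sit in the inner mitochondrial membrane, with a few in peroxisomes or the outer membrane. Each moves a small set of metabolites, often by exchanging one for another, and so links reactions of the cytosol with those of the matrix. In liver they serve oxidative phosphorylation (ADP, ATP and phosphate), the export of citrate for fatty acid synthesis, the malate-aspartate shuttle, the urea cycle (aspartate and ornithine), the import of acylcarnitines for fatty acid oxidation, and the supply of iron and cofactors.

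Values are the mean coverage of a gene's exons in reads per base pair (rpbp), so that genes of different length can be compared. A gene was called expressed when at least 1 of its 12 values was above 8 rpbp. This left 28 of the 41 carrier genes and 10198 of all genes. The number of sequences in each library was not used here, and no error of counting is stated. The carriers were present at a median of 71.7 rpbp against 22.9 rpbp for all expressed genes. The 2 samples of a time point differed with a median SD of 8.55% of the mean for the carriers and 10.8% for all expressed genes.

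All 5 hepatocyte markers were expressed in these livers, and 3 skeletal muscle markers summed to 0 rpbp at the median, with 11.5 rpbp as the highest sum. Both ZT2 samples stood apart from the other 10. Their median correlation with samples of other times was 0.942 and 0.945, against 0.960 to 0.971 elsewhere. Albumin (*Alb*) held 3.26% and 3.50% of the signal at ZT2 and 6.16% to 8.21% later. The 5 hepatocyte markers summed to 79346 and 82302 rpbp at ZT2 and to 120958 rpbp or more in the other samples, and most of that sum was *Alb*. They did not move as one: *Alb*, *Ttr* and *Tat* were lower in both ZT2 samples than in the other 10, *Cps1* overlapped, and *Apoa1* was higher at ZT2 (17423 and 17762 rpbp) than in the other 10 (7866 to 15191 rpbp). The 5 Kupffer cell markers summed to 536 and 540 rpbp at ZT2 and to 258 to 429 rpbp elsewhere. *Clec4f*, *Cd5l* and *Vsig4* were higher in both ZT2 samples than in the other 10, while *Emr1* and *Marco* overlapped. The 4 lymphocyte and granulocyte markers in the table summed to 15.5 and 16.96 rpbp at ZT2 and to 3.92 to 13.7 rpbp elsewhere. Of these, *S100a8* alone was higher in both ZT2 samples (5.92 and 10.3 rpbp) than in the other 10 (0.28 to 5.16 rpbp). At ZT2 the sums of endothelial, stellate, cholangiocyte and erythroid markers lay within the range of the other samples. The part of these differences in the results at ZT2 was not tested, and in whole liver fewer cells of a type and less RNA per cell cannot be told apart.

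The levels of the carriers spread over 4 orders of magnitude, from the ADP/ATP carrier *Slc25a5* to genes listed at 0 in most samples. *Slc25a5* was the highest in each of the 12 samples, with a mean of 865 ± 97.2 rpbp (SD, n = 12). The glutathione carrier *Slc25a39* came next by its mean, at 479 ± 36.8 rpbp, although *Slc25a10* exceeded it in 3 samples, both of ZT6 and that of ZT10 in series 2. The ornithine carrier *Slc25a15*, the citrate carrier *Slc25a1* and the dicarboxylate carrier *Slc25a10* followed at 349 ± 38.6, 329 ± 48.3 and 313 ± 152 rpbp. These 3 did not separate, since *Slc25a15* exceeded *Slc25a1* in 8 of 12 samples and *Slc25a1* exceeded *Slc25a10* in 8 of 12. The 5 genes together held 57.4% of the summed signal of the family. The ATP-Mg/phosphate carrier *Slc25a23* (214 rpbp) and the aspartate/glutamate carrier *Slc25a13* (212 rpbp) had like means, and *Slc25a23* was the higher of them in 5 of 12 samples.

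**Figure D1:**
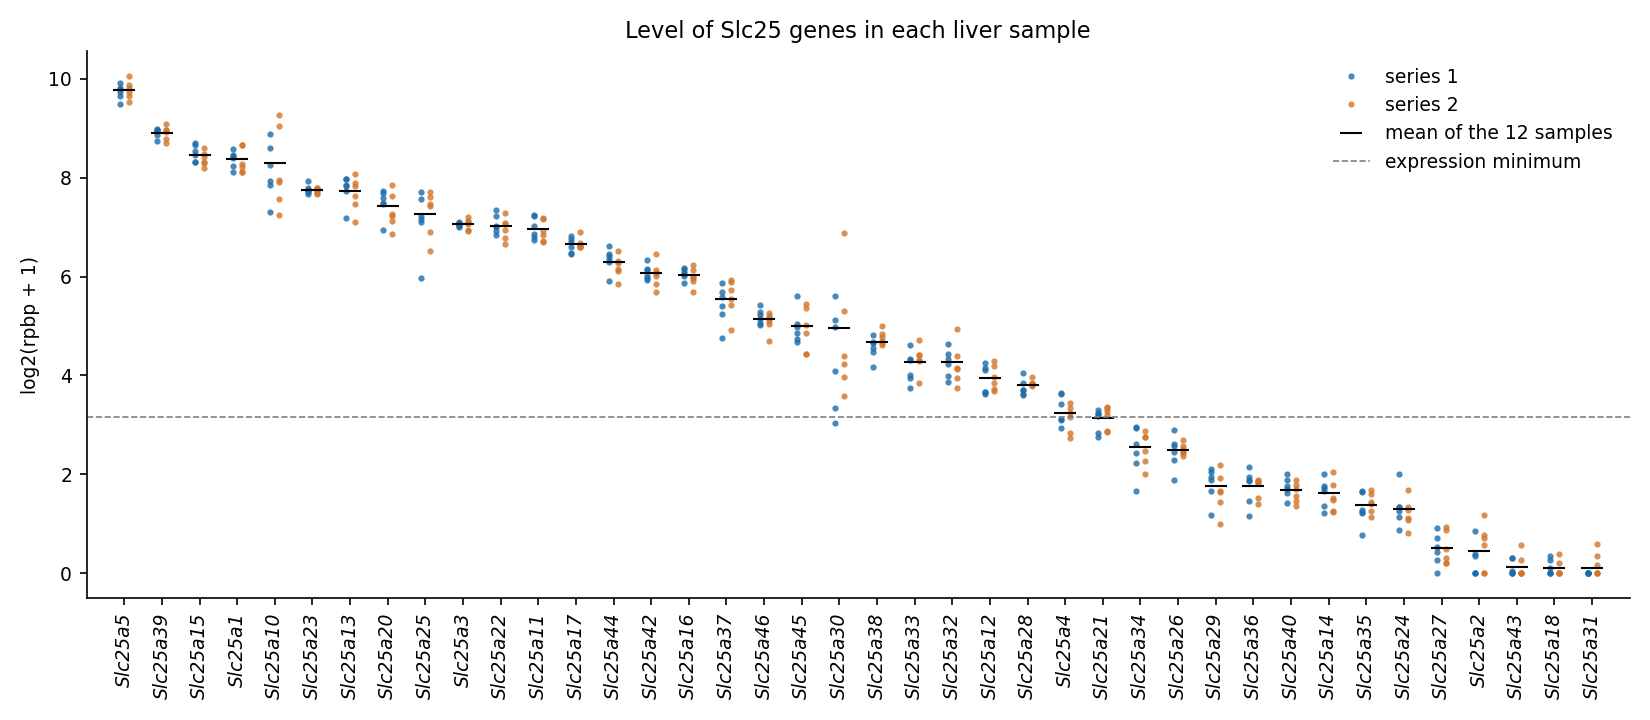
Level of *Slc25* genes as log2(rpbp + 1), ordered by mean, with 1 point for each of the 12 liver samples (blue, series 1; orange, series 2), a black bar for the mean and a dashed line at the expression minimum of 8 rpbp. *Slc25a5* stood highest in each sample, and *Slc25a30*, *Slc25a10* and *Slc25a25* showed wide scatter between samples.

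The 13 carrier genes under the minimum were *Slc25a2*, *Slc25a14*, *Slc25a18*, *Slc25a24*, *Slc25a26*, *Slc25a27*, *Slc25a29*, *Slc25a31*, *Slc25a34*, *Slc25a35*, *Slc25a36*, *Slc25a40* and *Slc25a43*. The highest single value among them was 6.80 rpbp, for *Slc25a34* at ZT6, and *Slc25a26*, the S-adenosylmethionine carrier, reached 6.44 rpbp at ZT10. *Slc25a2*, *Slc25a18*, *Slc25a27*, *Slc25a31* and *Slc25a43* stayed below 1.28 rpbp or at that value. *Slc25a31*, an ADP/ATP carrier of the testis, was listed at 0 in most samples and reached 0.52 rpbp in one. The remaining 6 genes peaked between 2.24 and 3.56 rpbp. *Slc25a35* shares 31.3% of its exon bases with *Rangrf* on the opposite strand, and the coverage was summed without regard to strand.

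Close relatives differed widely in level. Of the ADP/ATP carriers, *Slc25a5* was 102 times as high as *Slc25a4*, the form of heart and muscle, on the ratio of their means, with 76.3 to 140 times in single samples. *Slc25a5* has near-identical copies in the genome and only uniquely mapped sequences were counted, so that its level is uncertain. Of the aspartate/glutamate carriers, *Slc25a13* was 14.6 times as high as *Slc25a12* (7.30 to 21.3 times). Of the mitochondrial iron carriers, *Slc25a37* was 3.49 times as high as *Slc25a28* (1.94 to 4.40 times). *Slc25a39* exceeded its relative *Slc25a40* 214 times (161 to 317 times), and the pyrimidine nucleotide carrier *Slc25a33* exceeded *Slc25a36* by 7.69 times (4.21 to 15.4 times). In each of these 5 pairs the same gene was higher in 12 of 12 samples.

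The lower relatives were read near the floor of the table. *Slc25a36* gave 1.76, 3.44, 2.64, 2.72, 2.84 and 1.24 rpbp from ZT2 to ZT22 in series 1 and 2.72, 2.60, 2.64, 2.56, 1.64 and 1.88 rpbp in series 2. *Slc25a40* gave 3.04, 2.08, 2.40, 2.68, 2.28 and 1.68 rpbp in series 1 and 2.28, 2.68, 2.44, 1.76, 1.56 and 1.96 rpbp in series 2. Neither reached 8 rpbp at any time, so neither was tested.

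Among the glutamate carriers, *Slc25a22* was present at 100 to 161 rpbp while *Slc25a18* was listed at 0 in 7 samples and reached 0.32 rpbp in another. The *Slc25a18* values above 0 fell at ZT2 (0.08 rpbp), ZT6 (0.20 and 0.32 rpbp) and ZT10 (0.28 and 0.16 rpbp). Of the 3 ATP-Mg/phosphate carriers, *Slc25a23* averaged 214 rpbp and *Slc25a25* 153 rpbp, and *Slc25a23* was the higher in 11 of 12 samples. *Slc25a24* averaged 1.48 rpbp, and the mean of *Slc25a25* was 104 times as high. *Slc25a24* gave 0.84, 3.00, 1.52, 1.20, 1.40 and 1.52 rpbp in series 1 and 1.16, 2.24, 1.12, 0.76, 1.52 and 1.44 rpbp in series 2, with its highest value at ZT6 in series 1, the sample in which *Slc25a25* was lowest at 62.0 rpbp.

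Rhythms were then called with the share of the variance of the 12 values taken by a 24 hr cosine (F24), its permutation p over 10000 random orders and the amplitude, which is the highest over the lowest value. The call rhythmic needed a p under 0.05, more than 0.45 for F24 and more than 1.5 for the amplitude. 4 of the 28 expressed carriers were rhythmic (14.3%), against 19.1% of all expressed genes: *Slc25a4*, *Slc25a13*, *Slc25a32* and *Slc25a37*. Under stricter limits on F24 and amplitude, 3 of them (all but *Slc25a37*) were strongly rhythmic (10.7%, against 7.89% of all expressed genes). After Benjamini-Hochberg adjustment of the permutation p over all expressed genes, *Slc25a13* alone passed (3.57%, against 5.62%). 1 gene is 3.57% of the 28, and the 3 shares lie near those of all expressed genes.

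The aspartate/glutamate carrier *Slc25a13* (citrin, the liver form, which exports aspartate for the malate-aspartate shuttle and the urea cycle) had the highest F24 of the 4. From ZT2 to ZT22 it gave 145, 228, 251, 250, 225 and 210 rpbp in series 1 and 136, 225, 266, 236, 195 and 177 rpbp in series 2. Both ZT2 samples were below the other 10, the highest value fell at ZT10 in each series, and the ZT2 and ZT10 samples did not overlap. F24 was 0.745, the amplitude 1.95 and the phase 12.1 hr, with a permutation p of 0.0015 and an adjusted p of 0.036. The difference between ZT10 and ZT2 was 0.87 on the log2(rpbp + 1) scale (SE 0.11), and limma's F-test across the 6 time points gave an adjusted p of 0.0050. The adjusted permutation p missed 0.05 when 1 library was left out in 10 of the 12 cases, with F24 between 0.706 and 0.856, and it was 0.078 without both ZT2 libraries. Without them the amplitude was 1.51, and *Slc25a13* was still called rhythmic but no longer strongly so.

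Its relative *Slc25a12* (aralar, the form of brain and muscle) ran the other way at ZT2. It gave 18, 11.3, 11.8, 16.8, 11.8 and 16.4 rpbp in series 1 and 18.7, 11.9, 13.4, 14.8, 12.2 and 17.3 rpbp in series 2. Both ZT2 samples were above the other 10, and the values went low at ZT6, up by ZT14, low again at ZT18 and up at ZT22 in each series. This shape is not a 24 hr cosine (F24 0.283, permutation p = 0.223), but the time points differed (limma adjusted p = 0.012), with 0.62 between ZT2 and ZT6 on the log2 scale (SE 0.11). *Slc25a13* was 8.05 and 7.30 times as high as *Slc25a12* at ZT2 and 21.3 and 19.9 times as high at ZT10.

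The bases before the start of *Slc25a13* and *Slc25a12* are shown because these relatives were at opposite ends of their range at ZT2. Those of *Slc25a1* and *Slc25a33* are shown because they are the other expressed carriers with an E-box in the promoters searched. The E-box is the hexamer bound by the clock proteins CLOCK and BMAL1. The sequences are RefSeq promoters, each found once by exact match in mm9, 250 bases up to the start, 5′ to 3′ on the gene's strand, with the E-box CACGTG in capitals. *Slc25a13* lies at chr6:6167174-6167423 with the E-box starting 125 bases before the start. *Slc25a12* lies at chr2:71205813-71206062 and holds none. *Slc25a1* lies at chr16:17928313-17928562 with the E-box 239 bases before the start, and *Slc25a33* at chr4:149148377-149148626 with the E-box 8 bases before it. All 4 genes are on the minus strand.
Slc25a13: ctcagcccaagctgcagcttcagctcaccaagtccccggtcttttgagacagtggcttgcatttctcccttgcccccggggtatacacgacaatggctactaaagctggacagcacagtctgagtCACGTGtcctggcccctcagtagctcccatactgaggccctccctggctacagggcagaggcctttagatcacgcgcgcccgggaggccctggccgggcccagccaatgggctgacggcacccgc
Slc25a12: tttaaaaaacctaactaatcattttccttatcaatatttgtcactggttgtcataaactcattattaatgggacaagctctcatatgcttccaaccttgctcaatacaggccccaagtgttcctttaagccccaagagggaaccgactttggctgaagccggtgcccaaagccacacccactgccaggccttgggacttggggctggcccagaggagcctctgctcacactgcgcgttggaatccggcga
Slc25a1: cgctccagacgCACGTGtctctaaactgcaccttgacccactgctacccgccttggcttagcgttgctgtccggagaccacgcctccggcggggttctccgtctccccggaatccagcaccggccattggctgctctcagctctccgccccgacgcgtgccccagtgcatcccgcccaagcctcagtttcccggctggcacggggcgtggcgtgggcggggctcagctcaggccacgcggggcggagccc
Slc25a33: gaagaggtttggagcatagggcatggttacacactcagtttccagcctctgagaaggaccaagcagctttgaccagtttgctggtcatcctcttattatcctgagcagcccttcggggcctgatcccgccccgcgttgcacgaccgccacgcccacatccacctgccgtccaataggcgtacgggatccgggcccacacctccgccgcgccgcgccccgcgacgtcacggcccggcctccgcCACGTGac

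RefSeq promoters (250 bases before to 50 after the start, build GRCm38.p6) were matched for 23 of the 28 expressed carriers, and each motif was searched on both strands. Only the first listed promoter of a gene was searched, and 6 of the 32 carriers with a promoter, expressed or not, had more than 1. The E-box CACGTG was found in 3 of the 23 (13.0%), against 10.8% of 5657 expressed genes and 7.24% of all 27025 promoters. One of these 3, *Slc25a13*, was rhythmic. *Slc25a1* and *Slc25a33* were not called. The D-box TTATGTAA and the cAMP response element TGACGTCA were found in none of the 23, and in 0.548% and 3.36% of expressed genes. The ROR element AGGTCA was found in *Slc25a39* and *Slc25a45* (8.70%, against 13.1%). CCAAT was found in 13 (56.5%, against 39.2%) and GGGCGG in 20 (87.0%, against 65.3%), at a median GC content of 60.7% for the carriers and 61.0% for expressed genes. A match of letters is a description of the window and not a bound site.

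The folate carrier *Slc25a32*, which brings folate into the matrix for one-carbon metabolism, had the highest amplitude of the 4 rhythmic genes, 2.39. It gave 13.5, 24.0, 20.5, 19.1, 17.8 and 14.8 rpbp in series 1 and 14.4, 20.0, 29.6, 16.7, 16.5 and 12.4 rpbp in series 2. The samples at ZT6 and ZT10 were above those of ZT2, ZT14, ZT18 and ZT22 in both series, and the ZT10 value of series 2 was the highest. F24 was 0.645 (permutation p = 0.0037, adjusted p = 0.056) with a phase of 9.81 hr, and the time points differed by limma's F-test (adjusted p = 0.032). The F-test missed 0.05 with 1 library left out in 7 of 12 cases, with an adjusted p of up to 0.090. The call as strongly rhythmic was lost without the ZT22 library of series 2, where F24 was 0.587.

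The ADP/ATP carrier *Slc25a4* was rhythmic at a level close to the expression minimum. It gave 7.52, 9.80, 11.3, 11.5, 7.64 and 6.64 rpbp in series 1 and 9.20, 8.48, 9.96, 7.92, 6.12 and 5.68 rpbp in series 2. In each series ZT18 and ZT22 were among the 3 lowest values. F24 was 0.661 (permutation p = 0.011, adjusted p = 0.090), with an amplitude of 2.03 and a phase of 9.53 hr. Limma's F-test did not pass for it (adjusted p = 0.12), and with a minimum of 16 rpbp it was not tested. Its call as strongly rhythmic was lost without the ZT10 library of series 1 or the ZT22 library of series 2. It was also lost with the amplitude taken from time-point means, which was 1.73.

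The iron carrier *Slc25a37* (mitoferrin, known for its role in red cell precursors) gave 26.2, 57.1, 46.7, 50.6, 41.3 and 37.0 rpbp in series 1 and 29.3, 59.8, 52.0, 58.0, 45.8 and 41.9 rpbp in series 2. Both series showed the same course, with ZT2 lowest, ZT6 highest, a dip at ZT10 and a slow decline from ZT14 to ZT22. The difference between ZT6 and ZT2 was 1.05 on the log2 scale (SE 0.11), and its adjusted p by limma's F-test, 0.0024, was the lowest of the expressed carriers. The 24 hr component was weaker (F24 0.532, permutation p = 0.037, adjusted p = 0.16, phase 11.2 hr). The rhythmic call was lost when 1 library was left out in 8 of the 12 cases and without both ZT2 libraries. It was also lost with limma's adjusted p for a 24 hr cosine in place of the permutation p. Of 7 erythroid markers 5 were in the table, and their sum ran from 353 to 1174 rpbp, with the highest sum at ZT10 in series 2, where *Slc25a37* was at 52.0 rpbp. The relative *Slc25a28*, the iron carrier of other tissues, stayed within 11.1 and 15.7 rpbp (F24 0.473, permutation p = 0.053). It gave 13.5, 15.7, 12.0, 12.1, 11.4 and 11.1 rpbp in series 1 and 13.1, 14.6, 13.4, 13.2, 13.2 and 12.8 rpbp in series 2, so that ZT6 was its highest time point too.

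**Figure D2:**
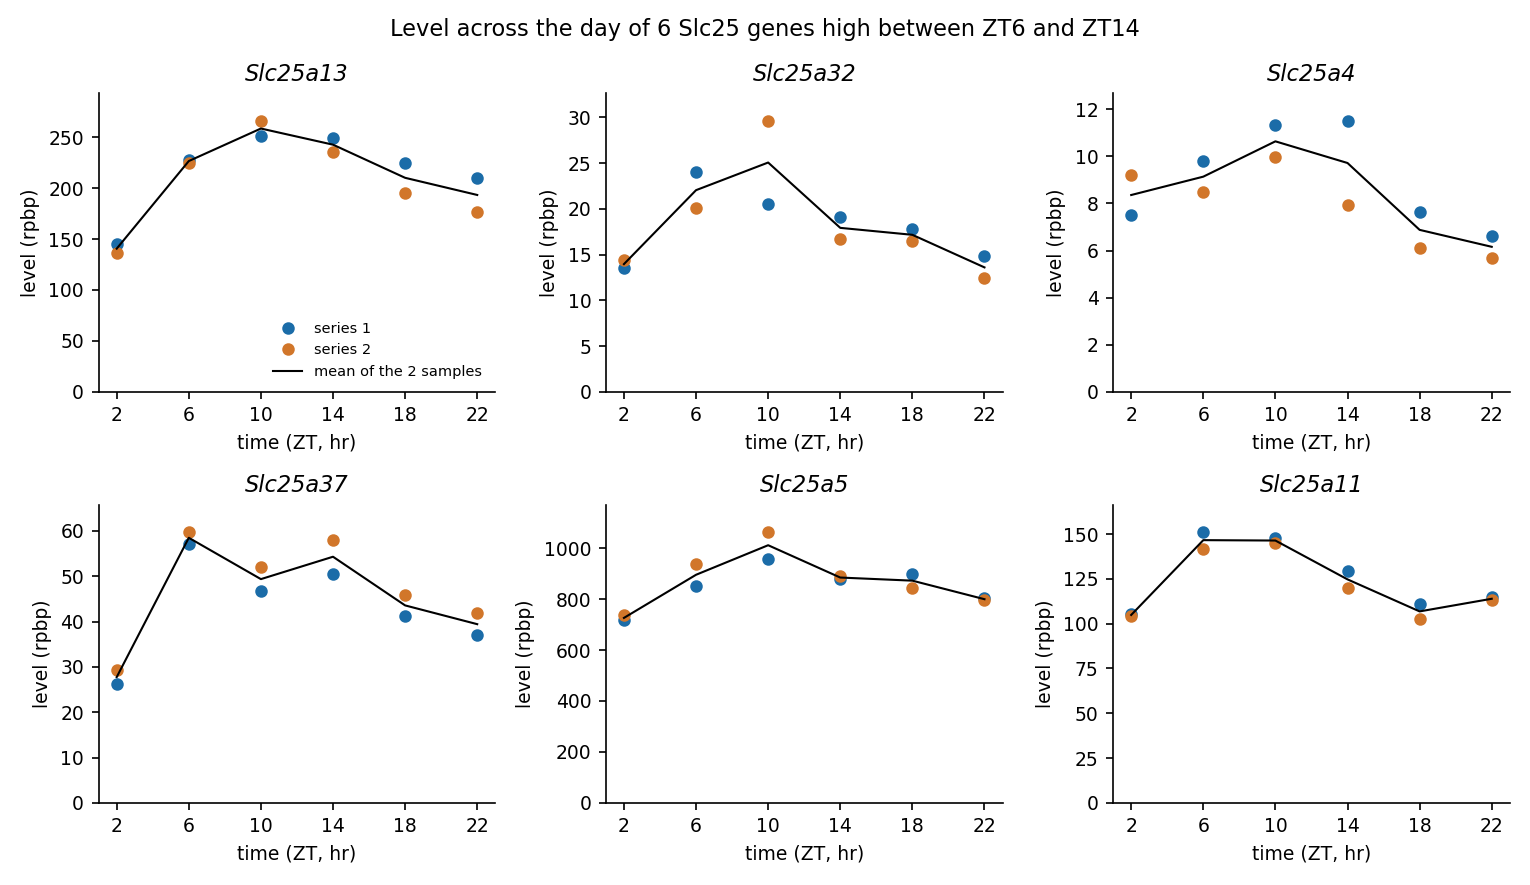
Level in rpbp against time (ZT, hr) for *Slc25a13*, *Slc25a32*, *Slc25a4* and *Slc25a37*, which were called rhythmic, and for *Slc25a5* and *Slc25a11*, which missed the amplitude limit, with 1 point for each sample (blue, series 1; orange, series 2) and a line through the means of the 2 samples. The time-point means were highest at ZT6 or ZT10 in each of the 6 genes, and the 2 ZT2 samples were below the other 10 in *Slc25a13*, *Slc25a37* and *Slc25a5*.

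Another 5 of the 28 carriers passed the limits for p and F24 but had an amplitude under 1.5, as did 7.09% of all expressed genes. *Slc25a5* gave 716, 853, 958, 879, 900 and 803 rpbp in series 1 and 736, 939, 1065, 891, 846 and 796 rpbp in series 2, lowest at ZT2 and highest at ZT10 in both. Its F24 was 0.676 (permutation p = 0.0045, adjusted p = 0.061) and its amplitude 1.49, just under the limit. *Slc25a11*, the oxoglutarate/malate carrier of the malate-aspartate shuttle, was singled out after its values were seen. It had the highest F24 of the expressed carriers, 0.757 (permutation p = 0.0050, adjusted p = 0.064), at an amplitude of 1.47. It gave 105, 151, 148, 129, 111 and 115 rpbp in series 1 and 104, 142, 145, 120, 103 and 113 rpbp in series 2. Its ZT6 and ZT10 samples were above the other 8, and without both ZT2 libraries F24 was 0.946 with an adjusted p of 0.036. *Slc25a11* shares 8.92% of its exon bases with *Rnf167* on the opposite strand, which averaged 46.7 rpbp.

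*Slc25a1*, which exports citrate to the cytosol for fatty acid synthesis, gave 274, 380, 350, 345, 299 and 337 rpbp in series 1 and 276, 405, 403, 309, 295 and 276 rpbp in series 2. Its F24 was 0.573 (permutation p = 0.027) and its amplitude 1.48. When the samples were rescaled by median-of-ratios size factors, the amplitudes of *Slc25a1* and *Slc25a5* became 1.53 and 1.55 and both were called, which made 6 rhythmic carriers (18.6% of all expressed genes were called under this scaling). *Slc25a39* gave 488, 462, 496, 495, 505 and 429 rpbp in series 1 and 412, 485, 543, 497, 495 and 441 rpbp in series 2, with an amplitude of 1.32 (F24 0.579, permutation p = 0.018). The ZT2 samples of *Slc25a39* were not alike, at 488 and 412 rpbp. The peroxisomal carrier *Slc25a17*, which moves coenzyme A and related nucleotides, had an F24 of 0.567 (permutation p = 0.022), a phase of 3.32 hr and an amplitude of 1.36, with time-point means between 92.1 rpbp (ZT18) and 113 rpbp (ZT2).

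**Figure D3:**
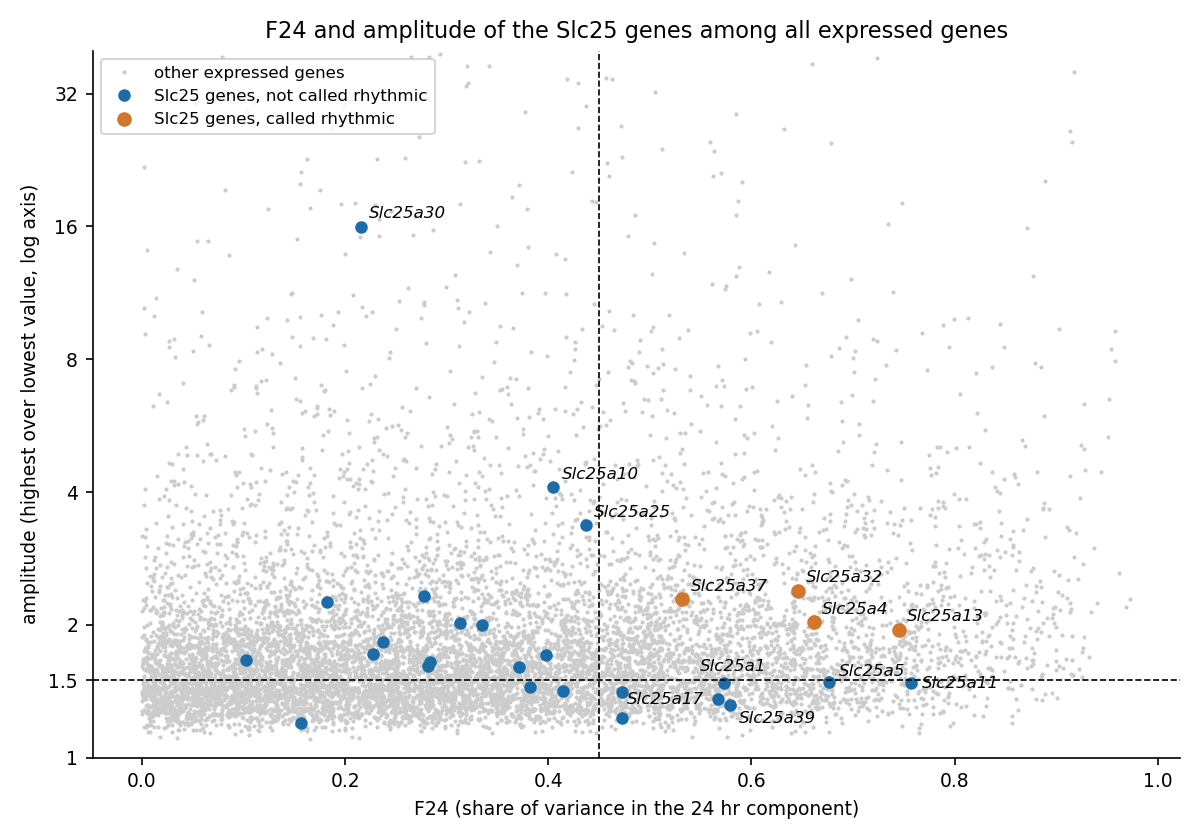
Amplitude (highest over lowest of the 12 values, log axis) against F24 for expressed genes with an amplitude under 40 (grey) and for the 28 expressed *Slc25* genes (blue, not called; orange, called rhythmic), with dashed lines at the limits of 0.45 and 1.5. *Slc25a11*, *Slc25a5* and *Slc25a1* lay just under the amplitude limit, and *Slc25a30*, *Slc25a10* and *Slc25a25* had high amplitudes with an F24 under 0.45.

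The F-test of limma across the 6 time points asks whether any time differs, whatever the shape. It passed at an adjusted p below 0.05 for 11 of the 28 expressed carriers (39.3%), against 20.4% of all expressed genes. They were *Slc25a1*, *Slc25a5*, *Slc25a10*, *Slc25a11*, *Slc25a12*, *Slc25a13*, *Slc25a30*, *Slc25a32*, *Slc25a37*, *Slc25a42* and *Slc25a45*. At an unadjusted p below 0.05 there were 18 (64.3%, against 37.7%). With a minimum of 16 rpbp the same 11 passed at the adjusted p, against 25.6% of the 7516 genes then tested. Without both ZT2 libraries, *Slc25a11* and *Slc25a30* passed, 2 of 28, and the share of all expressed genes fell to 6.15%. No other time point was left out whole. Leaving out a single library gave 5 (ZT2, series 1), 6 (ZT6, series 1, or ZT2, series 2), 7 (ZT6, ZT14 or ZT18 of series 2) or 8 to 11 carriers, while the share of all genes was 9.10% to 11.1% without a ZT2 or ZT6 library and 14.4% to 19.8% without another. *Slc25a11*, *Slc25a12*, *Slc25a13*, *Slc25a30* and *Slc25a37* passed whichever single library was left out.

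Both ZT2 samples were below the other 10 in 9 of the 28 carriers (32.1%), against 9.58% of all expressed genes. These were *Slc25a1*, *Slc25a5*, *Slc25a10*, *Slc25a13*, *Slc25a16*, *Slc25a20*, *Slc25a23*, *Slc25a37* and *Slc25a44*. Both ZT2 samples were above the other 10 in 3 carriers (10.7%, against 10.4%), which were *Slc25a12*, *Slc25a30* and *Slc25a45*. The mean was lowest at ZT2 in 12 carriers (42.9%, against 21.9% of expressed genes) and highest at ZT10 in 9 (32.1%, against 14.9%), and it was lowest at ZT10 in none (against 18.4%). The phase of the 24 hr cosine lay between 8 and 12 hr in 11 carriers (39.3%, against 20.1%) and between 12 and 16 hr in 6 (21.4%, against 12.0%), whether or not the gene was rhythmic.

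The summed signal of the 41 carriers was 3578 ± 8.32 rpbp at ZT2 (SD, n = 2), 4338 ± 138 at ZT6, 4540 ± 473 at ZT10, 4055 ± 195 at ZT14, 4048 ± 270 at ZT18 and 3857 ± 159 at ZT22. Both ZT2 sums were below the other 10. *Slc25a5* held 21.3% of the sum over the 12 samples. The wide spread at ZT10 came with a sum of 4874 rpbp in series 2 and 4205 rpbp in series 1.

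**Figure D4:**
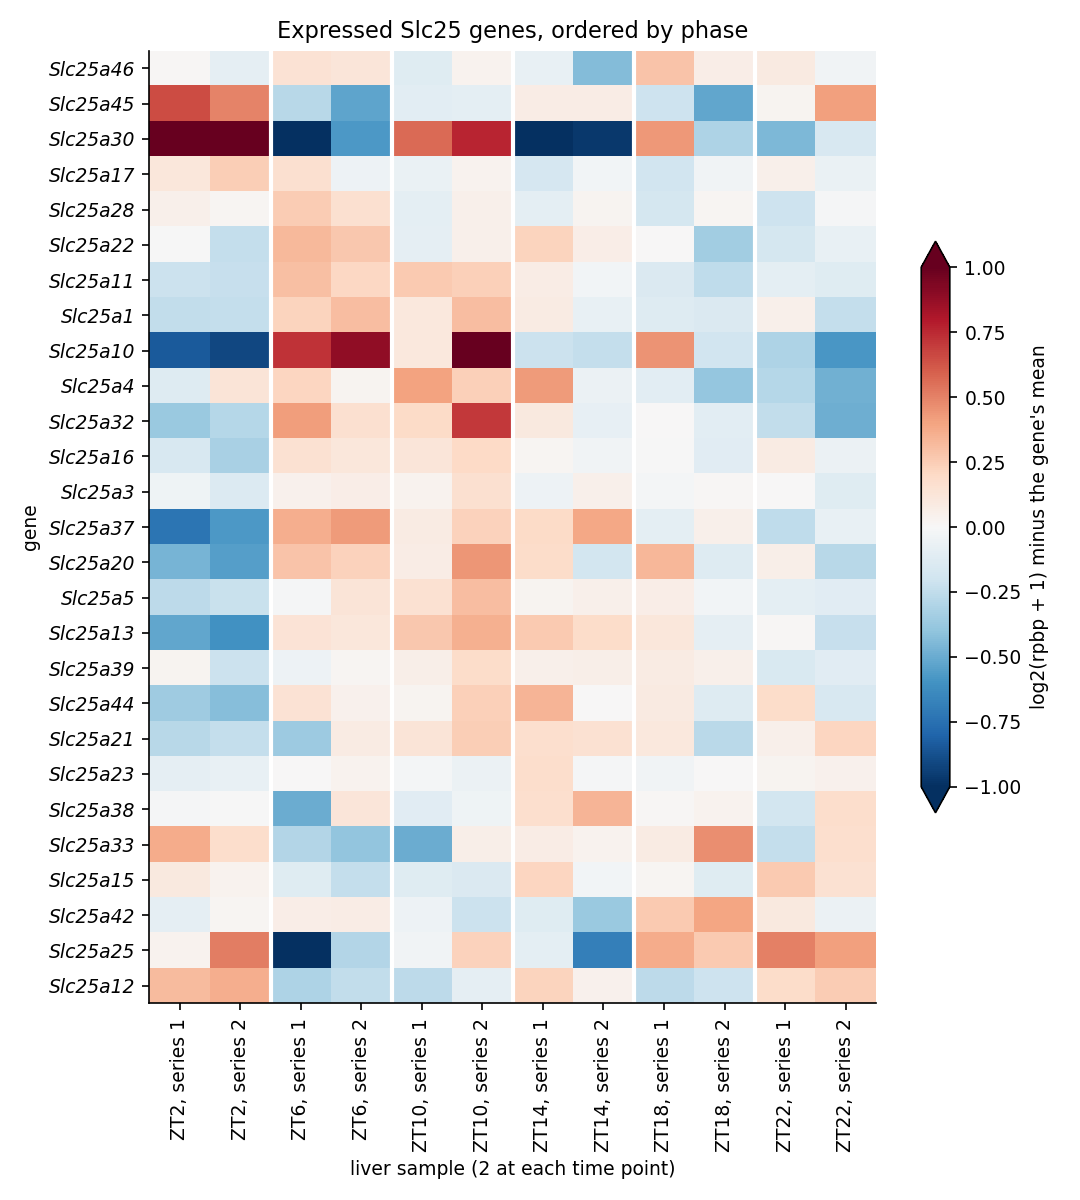
Difference from the gene's own mean on the log2(rpbp + 1) scale (red, higher; blue, lower; colours stop at 1 and -1) for expressed *Slc25* genes in the 12 liver samples, with genes ordered by the phase of the 24 hr cosine. Most genes in the middle of the order were low in both ZT2 samples, while *Slc25a12*, *Slc25a30* and *Slc25a45* were high there.

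By role, 3 of the 4 expressed carriers of citrate, dicarboxylates and oxoglutarate passed the F-test (*Slc25a1*, *Slc25a10* and *Slc25a11*), against 20.4% of all expressed genes, and none was rhythmic. Without both ZT2 libraries *Slc25a11* alone of these passed. *Slc25a10* exchanges malate and succinate for phosphate. It gave 157, 469, 305, 243, 388 and 229 rpbp in series 1 and 150, 523, 616, 240, 248 and 189 rpbp in series 2. Both ZT2 samples were lowest, ZT6 was high in both series, and the ZT10 samples were 305 and 616 rpbp. The time points differed (limma adjusted p = 0.018), with 1.68 between ZT6 and ZT2 on the log2 scale (SE 0.29), and the 24 hr component did not pass (F24 0.405, permutation p = 0.098). Of the 2 adipocyte markers in the table, *Cidec* was highest in the ZT10 sample of series 2, at 41.8 rpbp against 1.08 to 15.2 rpbp elsewhere, while *Adipoq* was listed at 0 in that sample. The adjusted p of *Slc25a10* was between 0.0031 and 0.068 with 1 library left out. The oxodicarboxylate carrier *Slc25a21* was near the minimum, with time-point means between 6.30 rpbp (ZT2) and 8.92 rpbp (ZT10), and did not pass (adjusted p = 0.30).

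Of the other amino acid carriers, none of 3 expressed members was rhythmic or passed the F-test, against 19.1% and 20.4% of all expressed genes. *Slc25a15*, which exchanges ornithine and citrulline in the urea cycle, gave 370, 319, 318, 402, 351 and 415 rpbp in series 1 and 356, 293, 313, 339, 319 and 386 rpbp in series 2. ZT22 was high and ZT6 and ZT10 were low in both series, with a phase of 20.8 hr, but the tests gave a permutation p of 0.093 (F24 0.415) and a limma adjusted p of 0.10. The glycine carrier *Slc25a38* had time-point means between 21.7 rpbp (ZT6) and 29.2 rpbp (ZT14) (adjusted p = 0.47). The branched-chain amino acid carrier *Slc25a44* had means between 58.0 rpbp (ZT2) and 86.5 rpbp (ZT14) (adjusted p = 0.12). The glutamate carrier *Slc25a22* gave 127, 161, 120, 149, 128 and 113 rpbp in series 1 and 108, 154, 132, 134, 100 and 121 rpbp in series 2, highest at ZT6 in both series (F24 0.371, permutation p = 0.13, limma adjusted p = 0.11).

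The carnitine group had contrary courses at ZT2. *Slc25a20*, which brings acylcarnitines into the matrix for fatty acid oxidation, had a time-point mean of 118 ± 4.67 rpbp at ZT2 and of 157 to 203 rpbp later, and did not pass (limma adjusted p = 0.082). *Slc25a45*, a relative of the carnitine carrier, was singled out after its values were seen. It gave 47.8, 24.7, 27.9, 31.7, 25.8 and 30.6 rpbp in series 1 and 42.7, 20.5, 28.1, 31.6, 20.7 and 40.3 rpbp in series 2. Its values were highest at ZT2 and lowest at ZT6 and ZT18, much as those of *Slc25a12*, and differed across times (limma adjusted p = 0.012, 0.97 between ZT2 and ZT6 on the log2 scale, SE 0.15). The call was lost without the ZT2 library of series 1 (adjusted p = 0.059) and without both ZT2 libraries. F24 was 0.278 (permutation p = 0.24).

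Among the carriers of the energy system, the phosphate carrier *Slc25a3* varied little, with time-point means between 124 rpbp (ZT2) and 141 rpbp (ZT10) (limma adjusted p = 0.51). *Slc25a23* was the steadiest expressed carrier by amplitude, 1.20. It gave 201, 215, 211, 242, 208 and 219 rpbp in series 1 and 203, 219, 206, 212, 215 and 221 rpbp in series 2. *Slc25a25*, a calcium-regulated ATP-Mg/phosphate carrier, gave 149, 62.0, 142, 136, 189 and 207 rpbp in series 1 and 208, 119, 171, 90.3, 175 and 193 rpbp in series 2. It was high at ZT18 and ZT22 and low at ZT6 and ZT14 in both series, but the samples of a time point differed widely (F24 0.437, permutation p = 0.080, limma adjusted p = 0.060). The amplitude of *Slc25a25* was 3.36, and 8.18% of its exon bases overlap *Naif1* on the opposite strand.

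*Slc25a30*, a kidney-type relative of the uncoupling proteins, had the largest amplitude of the expressed carriers, 15.99 (6.54 without the ZT2 library of series 2). It was singled out after its values were seen. It gave 47.6, 7.28, 33.6, 9.16, 30.5 and 16.1 rpbp in series 1 and 116, 14.7, 38.6, 10.96, 17.9 and 19.9 rpbp in series 2. In both series it was high at ZT2, low at ZT6, high at ZT10 and low at ZT14, and its ZT2 sample of series 2 was far above that of series 1. The F-test passed (limma adjusted p = 0.0087) with 2.78 between ZT2 and ZT14 on the log2 scale (SE 0.42), and it passed with any single library left out (adjusted p from 0.0086 to 0.024). The 24 hr component was small (F24 0.216, permutation p = 0.33).

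The carriers of nucleotides and cofactors had 6 expressed members, of which *Slc25a32* was rhythmic and *Slc25a32* and *Slc25a42* passed the F-test. Of all expressed genes 19.1% were rhythmic and 20.4% passed the F-test. The mitochondrial coenzyme A carrier *Slc25a42* was also singled out after its values were seen. It had its highest mean at ZT18, 82.9 ± 5.35 rpbp, and its lowest at ZT14, 55.4 ± 6.93 rpbp (limma adjusted p = 0.045, 0.58 on the log2 scale, SE 0.11). Its adjusted p was between 0.040 and 0.15 with 1 library left out, and it missed 0.05 in 10 of the 12 cases. *Slc25a33*, whose E-box lies next to its start, gave 23.6, 14.5, 12.4, 19.0, 19.1 and 15.1 rpbp in series 1 and 20.4, 13.4, 18.8, 18.5, 25.2 and 20.3 rpbp in series 2. Its values were not called (F24 0.313, permutation p = 0.19, limma adjusted p = 0.16), and 14.9% of its exon bases overlap a transcript on the opposite strand. *Slc25a16* had means between 54.0 rpbp (ZT2) and 71.7 rpbp (ZT10) (limma adjusted p = 0.075). *Slc25a46*, a relative in the outer membrane, had means between 28.7 rpbp (ZT14) and 38.7 rpbp (ZT18) (adjusted p = 0.20).

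**Figure D5:**
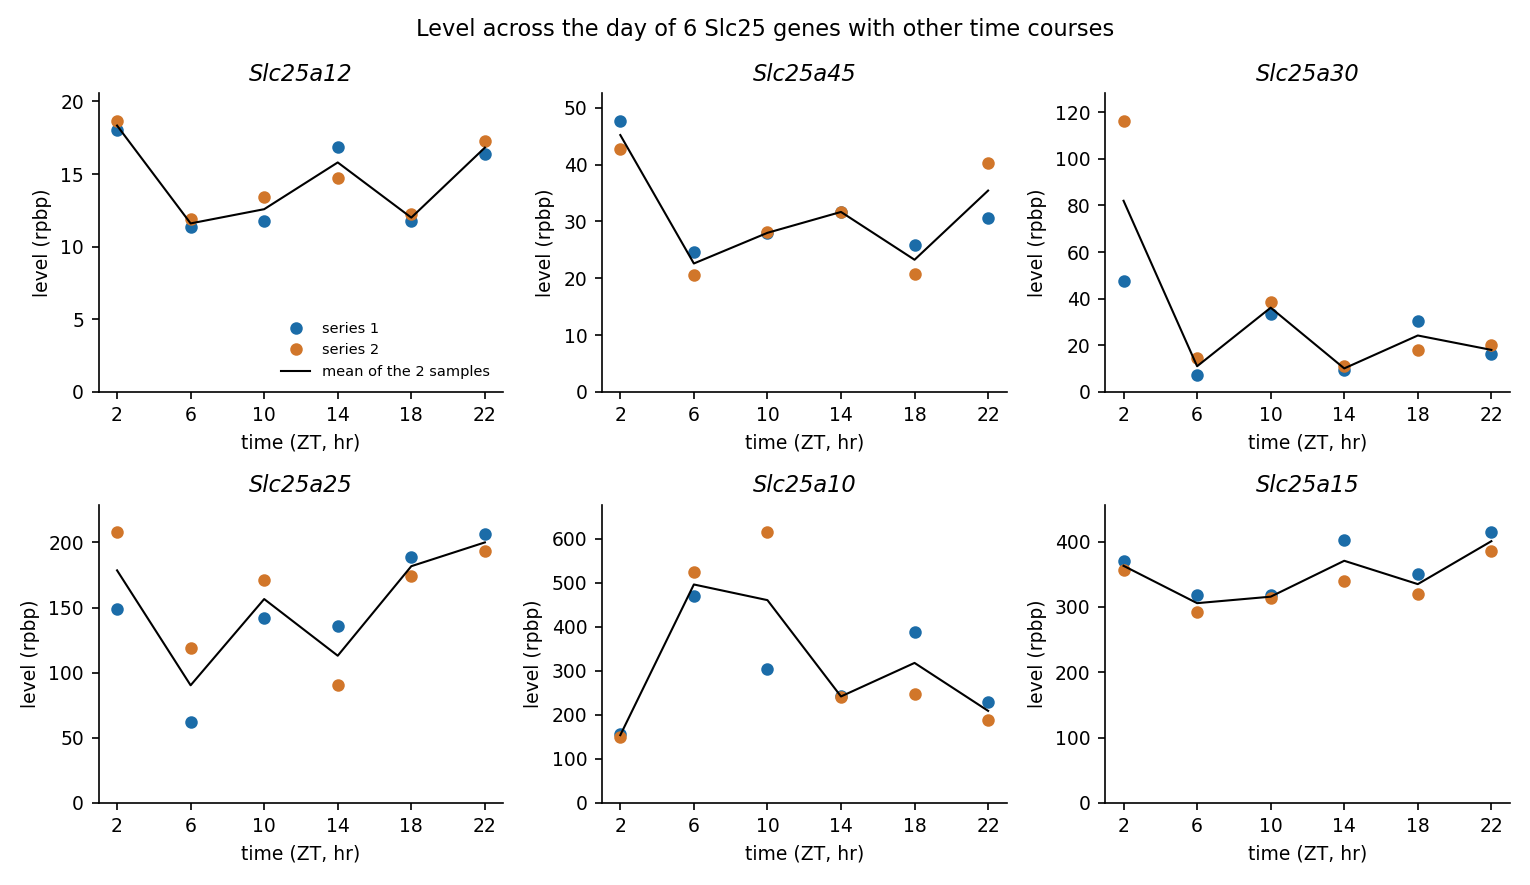
Level in rpbp against time (ZT, hr) for *Slc25a12*, *Slc25a45*, *Slc25a30*, *Slc25a25*, *Slc25a10* and *Slc25a15*, with 1 point for each sample (blue, series 1; orange, series 2) and a line through the means of the 2 samples. *Slc25a12*, *Slc25a45* and *Slc25a30* were highest at ZT2 with more than 1 rise in the day, and the 2 samples of *Slc25a10* at ZT10 were 305 and 616 rpbp.

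Of 13 symbols for carriers of the family and pyruvate carriers under other names, 8 were in the table and 6 expressed. The pyruvate carrier subunit *Brp44l* was rhythmic (amplitude 2.24, F24 0.551, permutation p = 0.038, adjusted p = 0.17) and differed across times, as did *Mcart1* (limma adjusted p = 0.010 and 0.028). That made 1 of 6 rhythmic and 2 of 6 past the F-test, against 19.1% and 20.4% of all expressed genes. *Brp44l* and *Asl* are given with all their values, a choice made after these were seen. *Brp44l* gave 297, 552, 499, 429, 517 and 380 rpbp in series 1 and 265, 572, 593, 439, 401 and 289 rpbp in series 2, lowest at ZT2 in both. Of 19 symbols for enzymes that make or use the carried metabolites, 18 were in the table and expressed. 6 of the 18 were rhythmic, among them *Cs*, *Ass1*, *Asl*, *Cps1* and *Cpt1a*, and 7 passed the F-test, against 19.1% and 20.4% of all expressed genes. *Asl*, which splits argininosuccinate in the urea cycle, gave 270, 420, 650, 655, 688 and 528 rpbp in series 1 and 272, 378, 550, 743, 682 and 463 rpbp in series 2 (F24 0.926, permutation p = 0.0001, the smallest that 10000 orders can give, adjusted p = 0.015). Its phase was 14.9 hr, against 12.1 hr for *Slc25a13*, which supplies the aspartate of that cycle. *Cpt1a*, which makes the acylcarnitines that *Slc25a20* carries, had an F24 of 0.833 and a phase of 10.6 hr (adjusted p = 0.034).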

How the data were processed

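Poly(A) RNA of 12 liver samples was sequenced on libraries of an Illumina TruSeq kit. Per the labels, the authors used CASAVA 1.8 and TopHat with the mm9 genome. They kept uniquely mapped sequences, flattened the exons of all isoforms, summed coverage without strand and divided it by exon length. The resulting coverage was deposited as a signal that the authors had scaled to 10000000 uniquely mapped sequences. It was multiplied by 4. The deposited columns named ZT20 were taken as ZT22, the time in the labels. 3 columns of the authors' rhythm results were not used.

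F24, its permutation p (10000 orders, seed 1), amplitude and phase were computed with numpy 2.4.6, and the F-test with limma 3.58.1 (R 4.3.3) with a mean-variance trend on log2(rpbp + 1). p-values were adjusted by Benjamini-Hochberg over 10198 genes, expressed above 8 rpbp in at least 1 sample. The scripts were tested on simulated data. Coverage is not a count, so no count test was used. Gene overlaps came from GENCODE on mm9. All 12 values are given for rhythmic carriers, the 5 highest and close relatives, and others are named as chosen after their values were seen. The carriers were taken by symbol, and the choice of this family and of the gene lists was made with earlier results of these data known. Alternatives were other minimums, scalings, pseudocounts, log-scale F24, a series block and left-out libraries. Others were the adjusted p in the call, limma's test of a cosine, the amplitude from time-point means and no mean-variance trend. Some results that the counts include are not reported here.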

Additional observations from a re-analysis of the deposited data

How the results depend on the processing

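With no minimum, 7 carriers were rhythmic, 5 strongly so, none passed the adjusted permutation p and 7 passed limma's F-test (13.9%, 5.6%, 1.62% and 7.33% of all 20042 genes tested). With the adjusted p in the call, 1 carrier was rhythmic and 1 strongly so (4.81% and 3.60%). Limma's adjusted p for a cosine, in place of the permutation p, gave 3 rhythmic carriers, without *Slc25a37* (8.58%). All 3 were strongly so (6.44%). The amplitude from time-point means gave 4 rhythmic carriers (14.5%) and 2 strongly so, without *Slc25a4* (5.64%). A minimum of 16 rpbp gave 2 carriers past the adjusted permutation p (7.61%). A single series gave 0 rhythmic and 0 strongly rhythmic carriers, and the rhythmic share of all genes fell to 3.62% (without series 1) and 2.80% (without series 2). Its adjusted p says nothing of the carriers, since 6 values have 720 orders and 0 of all genes passed it. With 1 library left out, the rhythmic count ran from 3 to 5 (15.7% to 19.7% of all genes), the strongly rhythmic from 1 to 4 (7.52% to 9.65%), those past the adjusted permutation p from 0 to 1 (2.45% to 5.01%) and those past the F-test from 5 to 11 (9.10% to 19.8%). The numbers of the 2 series did not pair samples (median correlation of deviations -0.03 over 15 pairs of time points). With a replicate block, the F-test passed 7 carriers (16.7% of all genes), without *Slc25a1*, *Slc25a5*, *Slc25a32* and *Slc25a42*, and the rhythm counts did not move. The F-test passed 2 without both ZT2 libraries (6.15%) and 8 without the trend (17.6%), both chosen after seeing the data. The direction of a difference between time points was not computed under the alternatives. The mean of every carrier moved by less than its SD over the 12 samples. The cause of these shifts was not tested. With 2 samples at a time, small differences could not be resolved, and depth per sample was not used.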
